A study of Mus musculus with 7 samples.

Results

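Fos binding was examined around 4 genes of the bHLH-PAS transcription factor family, Npas4, Arnt, Arnt2 and Npas3, in the mouse hippocampus after saline or kainic acid. The genes were taken by name. Every peak of the 6 deposited lists that lay within 50 kb of a gene's RefSeq span (assembly GRCm38.p6) was kept, which gave 74 peaks in 43 merged regions out of 68873 regions in all. The 4 genes stand among 21887 protein-coding genes of the same table. All mice were wild-type C57BL/6J, 2 months old. The saline group (3 libraries) received saline. The kainic acid group (3 libraries) received 2 injections of kainic acid, a glutamate receptor agonist that provokes seizures, at 10 mg/kg and 30 min apart into the peritoneum, and animals at seizure level 4 were killed 1 h after the first injection. Chromatin was fixed from whole hippocampus and precipitated with an antibody against Fos, so the lists mix all hippocampal cell types, and more cells with a bound site and more binding per cell cannot be told apart. Neither the number of animals per library nor whether libraries came from separate animals is given in the labels, so p-values measure only the spread between these libraries, which may be technical.

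Npas4 is an immediate early gene of neurons: calcium entry after strong activity switches on its transcription within minutes, and its protein binds DNA as a dimer with Arnt or Arnt2. Arnt and Arnt2 are the general partners of the bHLH-PAS family, Arnt in most tissues (it is also the partner of the hypoxia factor Hif1a and of the dioxin receptor Ahr) and Arnt2 mainly in neurons and kidney. Npas3 is a brain-enriched member that also pairs with Arnt and is known for its part in brain development and hippocampal neurogenesis. Fos, the protein precipitated here, pairs with Jun proteins to form AP-1, which binds the motif TGANTCA.

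The lists held 15009, 63197 and 29650 peaks in kainic acid replicates 1, 2 and 3, and 7, 3277 and 2 peaks in saline replicates 1, 2 and 3. Saline replicates 1 and 3 therefore give almost no information on single genes, and a site missing from a list is a site that was not called there. The fold printed below is the authors' value, the height of a peak over the background used in its call, whose control is not given. It is not scaled between libraries, so each fold comes with its rank within the list (1 is the highest) and with the rank as a percentile of the list, where low values are strong. The lists hold peaks and no expression values, so the tissue label was not checked against marker genes. A merged region called in 2 or more kainic acid libraries is named a kainic acid region.

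The promoter sequences of Npas4, Arnt and Rin1 are shown first: Npas4 has the strongest nearby site but no peak at its start site, Arnt is its widely expressed partner, and Rin1 is the neighbour of Npas4 with kainic acid summits at its start site. They cover the 250 bases before the start site in the RefSeq promoter table of GRCm38.p6, 5′ to 3′ on the strand of the gene. Capitals mark TGACG or its reverse complement CGTCA, the core of the cyclic AMP response element (CRE) that CREB binds. This half-site was chosen after the sequences had been seen, and it does not separate windows with a peak from those without: Arnt2 and Npas3 held neither a half-site nor a peak. The first window, at chr19:4989972-4990221 on the minus strand, holds no called peak in any list, and so does the second, at chr3:95434140-95434389 on the plus strand. The third, at chr19:5050565-5050814 on the plus strand, belongs to the neighbouring gene Rin1 and contains the summits of 3 kainic acid peaks.
Npas4: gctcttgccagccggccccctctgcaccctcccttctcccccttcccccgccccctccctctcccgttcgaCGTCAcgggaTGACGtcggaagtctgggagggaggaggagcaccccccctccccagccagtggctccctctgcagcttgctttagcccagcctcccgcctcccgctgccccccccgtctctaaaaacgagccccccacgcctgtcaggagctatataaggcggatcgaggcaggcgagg
Arnt: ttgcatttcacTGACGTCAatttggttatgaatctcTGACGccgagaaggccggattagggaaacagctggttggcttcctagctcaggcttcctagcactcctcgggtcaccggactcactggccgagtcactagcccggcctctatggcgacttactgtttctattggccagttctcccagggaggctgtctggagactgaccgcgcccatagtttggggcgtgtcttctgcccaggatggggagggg
Rin1: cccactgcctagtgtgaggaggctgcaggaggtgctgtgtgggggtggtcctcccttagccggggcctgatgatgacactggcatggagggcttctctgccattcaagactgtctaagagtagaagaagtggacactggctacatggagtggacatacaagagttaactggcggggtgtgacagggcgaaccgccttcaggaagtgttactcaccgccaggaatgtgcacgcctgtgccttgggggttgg

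The Npas4 window held 2 CRE half-sites, starting at positions −179 and −169 from the start site. The Arnt window held the full CRE TGACGTCA, starting at position −239 (it reads as a half-site on both strands), and a further half-site. Among 32851 promoter windows of this length in the table, 17.8% held the half-site TGACG and 1.55% the full CRE, on either strand. The AP-1 motif TGANTCA was found in 6.75% of all windows and in none of the windows of Npas4, Arnt, Arnt2, Npas3 or Rin1. The cores that bHLH-PAS dimers bind, TCGTG and ACGTG, were found in 13.3% and 16.6% of all windows (on either strand), and of the 4 genes only Npas3 held a match, to ACGTG. The E-box CACGTG, which contains ACGTG, was found in 6.02% of all windows and in none of these. A match describes the letters only, and no match says only that these letters are not in this window. The sequences of the peaks themselves were not analysed here.

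The strongest Fos site near any of the 4 genes lay upstream of Npas4, on chromosome 19 from 4992613 to 4994024. Its fold was 12.7 in kainic acid replicate 1 (rank 78 of 15009), 24.2 in replicate 2 (rank 81 of 63197) and 13.9 in replicate 3 (rank 94 of 29650). It stood within the strongest 1% of each kainic acid list, at percentiles 0.520, 0.128 and 0.317. Saline replicate 2 also had a peak there, with a fold of 6.45 at rank 34 of 3277, percentile 1.04, while saline replicates 1 and 3 had none. The site was thus called in every library with a long list, in saline as in kainic acid. The height of the peak, recovered from the deposited values, was 52, 89 and 69 reads over a background of 3.17, 2.72 and 4.03 reads in kainic acid replicates 1, 2 and 3. In saline replicate 2 it was 20 reads over 2.26 reads. Each background was at or next to the lowest among that library's peaks near the 4 genes. Those lowest values were 3.17, 2.71 and 4.03 reads in kainic acid replicates 1, 2 and 3 and 2.26 reads in saline replicate 2. These heights are not scaled for the depth of the libraries. The deposited −log10 q was 39.3, 95.2 and 54.4 in the kainic acid lists and 7.94 in saline replicate 2.

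The summits of this site fell close together. From the Npas4 start site (upstream negative) the kainic acid summits of replicates 1, 2 and 3 lay at −3178, −3192 and −3159 bp and the summit of saline replicate 2 at −3195 bp, a spread of 36 bp over the 4 libraries. Over the kainic acid lists alone the spread was 33 bp. Of the 11937 regions in all 3 kainic acid lists, 7.61% had a spread that small, and the median was 122 bp with quartiles of 70 and 206 bp. The RefSeq span of Npas4 (chromosome 19, 4984353 to 5003439, gene ID 225872) reaches past the start site used here, at 4989971, and takes in this site. Whether the site is exonic or intronic was not analysed here, as the gene table gives no exons. At this site the peak was widest in kainic acid replicate 2, where the call covered 1400 bp. It covered 485 bp in replicate 1, 1068 bp in replicate 3 and 334 bp in saline replicate 2.

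**Figure D1:**
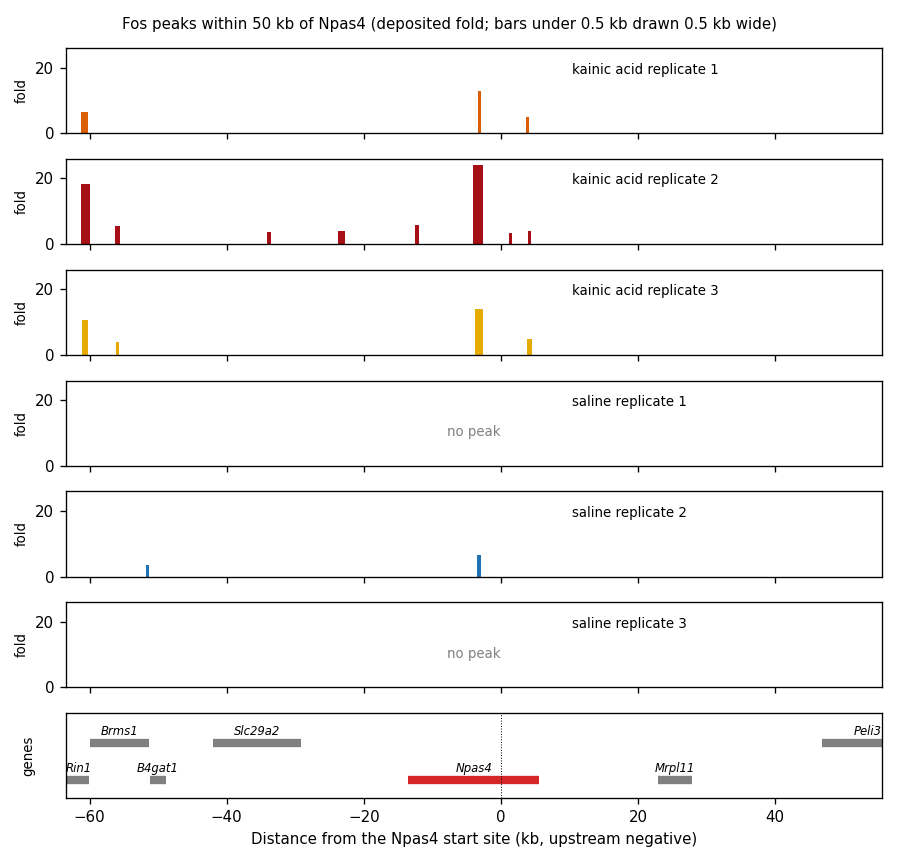
Deposited fold of each Fos peak (vertical axis) against its distance in kb from the Npas4 start site (horizontal axis), 1 row per library, with gene spans in the bottom row. The site 3.2 kb upstream was called in all 3 kainic acid libraries and in saline replicate 2, and the site at Rin1, at the left edge, in the kainic acid libraries only.

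Within 50 kb of Npas4 there were 4 kainic acid regions, and 3 of these were called in every kainic acid library. A kainic acid region within this reach was common: 62.7% of protein-coding genes had at least 1, and 42.5% had at least 1 in all 3 lists. The second strongest region near Npas4 lay 46.5 kb outside its span, on chromosome 19 from 5049911 to 5051264, at Rin1, which encodes a Ras effector of forebrain neurons. Its fold was 6.45, 18.3 and 10.6 in kainic acid replicates 1, 2 and 3, at percentiles 12.3, 0.560 and 1.40. Its summits lay at −146, −148 and −218 bp from the Rin1 start site at 5050815, inside the promoter window shown above. No saline list had a peak there.

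The other Npas4 regions were weaker. The region from 4985414 to 4986203 lay inside the gene, about 4.17 kb downstream of the start site, with folds of 5.04, 4.05 and 4.77 in kainic acid replicates 1, 2 and 3 and percentiles of 30.1, 60.0 and 29.3. The region from 5045533 to 5046285, inside Brms1 (a subunit of a Sin3 corepressor complex), had folds of 5.63 and 4.00 in replicates 2 and 3 and no peak in replicate 1. Both ranked in the middle of their lists. A further 4 regions were called in kainic acid replicate 2 alone, and 1 of these overlapped the promoter window of Slc29a2, a nucleoside transporter gene. Saline replicate 2 had 1 more peak in the window, from 5041259 to 5041691 in Brms1, with a fold of 3.63 at percentile 75.8, and no kainic acid list had a peak there. The window held 6 other protein-coding genes (Peli3, Mrpl11, Slc29a2, B4gat1, Brms1 and Rin1), so that its peaks cannot be assigned to Npas4 by position alone. The next kainic acid region beyond the window lay 83.8 kb from the span, at a mean percentile of 49.6.

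Numbers of peaks were then compared between the groups, to see whether more Fos sites were called around each gene after kainic acid. Around Npas4 the kainic acid lists held 3, 8 and 4 peaks in replicates 1, 2 and 3, and the saline lists held 0, 2 and 0. All kainic acid values were above all saline values. The kainic acid libraries averaged 5.00 ± 2.65 peaks (SD, n = 3), and the saline libraries averaged 0.667 ± 1.15 peaks (SD, n = 3). On the scale log10(number + 1) the difference was 0.59, with p = 0.1 in a two-sided exact permutation test over 20 assignments, the smallest that 3 libraries against 3 allow, and 0.133 after Benjamini-Hochberg adjustment over the 4 genes. The difference did not pass 0.05 and could not have. Among all protein-coding genes, 33.5% had every kainic acid value above every saline value.

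The lengths of the lists bear directly on this comparison. Per 1000 peaks of a list, the Npas4 window held 0.200, 0.127 and 0.135 peaks in kainic acid replicates 1, 2 and 3 and 0.610 in saline replicate 2, the other saline lists having 0. On that scale the difference turned to −0.0496 (exact permutation p = 1.0). Saline replicate 2 alone set this direction, with 2 peaks of 3277. For Npas3 the groups overlapped on that scale, with 0.533, 0.269 and 0.371 in kainic acid replicates 1, 2 and 3 and 0.305 in saline replicate 2 (exact permutation p = 0.2). For Arnt2, with no saline peak, they did not.

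Around Arnt2 the kainic acid lists held 3, 7 and 4 peaks and the saline lists held none, again without overlap. The means were 4.67 ± 2.08 (SD, n = 3) and 0, and the difference on the log10 scale was 0.73 (exact permutation p = 0.1, adjusted 0.133). Around Npas3 the kainic acid lists held 8, 17 and 11 peaks and the saline lists 0, 1 and 0, a difference of 1.00 (exact permutation p = 0.1, adjusted 0.133). The means for Npas3 were 12.0 ± 4.58 (SD, n = 3) and 0.333 ± 0.577 (SD, n = 3). Around Arnt the kainic acid lists held 0, 4 and 2 peaks and the saline lists none, so the groups overlapped at 0. The difference of 0.39 was little above the kainic acid SD of 0.357 on the log10 scale (exact permutation p = 0.4, adjusted 0.4). By number of peaks, 3 of the 4 genes had groups that did not overlap, against the 33.5% of all genes. Per 1000 peaks of a list the groups were apart for Arnt2 alone, which had no saline peak. Any gene with no saline peak and a peak in every kainic acid list is apart on both scales. The share of all genes apart per 1000 peaks was not computed. Kainic acid replicate 2, the longest list, had the most peaks at each gene, and replicate 1, the shortest of that group, the fewest.

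**Figure D2:**
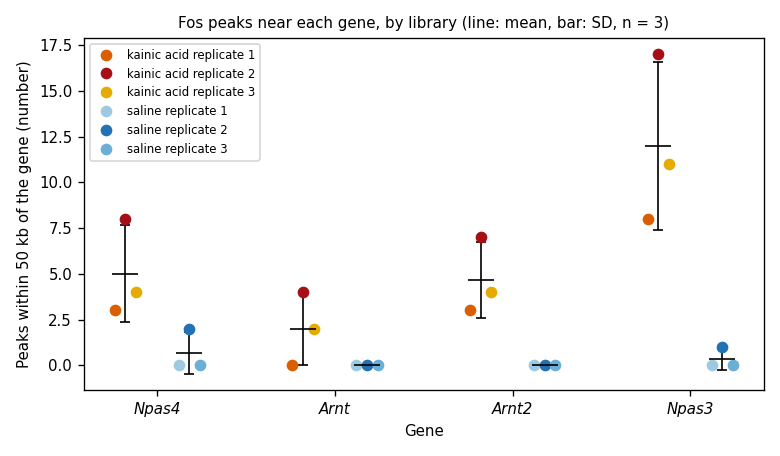
Number of Fos peaks within 50 kb of each gene (vertical axis) in each library, with kainic acid at the left and saline at the right of each gene, the mean as a line and the SD as a bar (n = 3). The groups were apart for Npas4, Arnt2 and Npas3 and met at 0 for Arnt.

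Arnt2 (chromosome 7, 84246274 to 84411741, gene ID 11864) had 4 kainic acid regions, all inside its span, of which 2 were in all 3 lists. This number fell to 1 with −log10 q of at least 5 or with kainic acid lists of equal length, and to 2 without replicate 3. Its strongest region lay deep in the gene, from 84285609 to 84286473, 124 kb downstream of the start site. Its fold was 8.01 in kainic acid replicate 1 (rank 725), 15.3 in replicate 2 (rank 747) and 7.06 in replicate 3 (rank 2287), at percentiles 4.83, 1.18 and 7.71. It was high in all 3 kainic acid lists, and its summits lay within 68 bp of each other. No saline list had a peak anywhere in the Arnt2 window.

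The other regions of Arnt2 ranked lower. The kainic acid region nearest to the start site, 6.38 kb downstream (84403418 to 84403912), was also in all 3 lists, with folds of 3.73, 5.05 and 2.94 and percentiles of 75.2, 36.0 and 91.7. The region from 84380803 to 84381268 had folds of 4.85 and 3.65 in replicates 2 and 3, and the region from 84390076 to 84390364 had folds of 2.98 and 3.13 in replicates 1 and 3. The summits of this last region were 3 bp apart although it was near the bottom of both lists, at a mean percentile of 91.1. Replicate 2 alone had 4 further regions in the window, the nearest to the start site at 1.96 kb downstream (fold 3.32). The Arnt2 window held no other protein-coding gene.

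Arnt (chromosome 3, 95434367 to 95497240, gene ID 11863), the widely expressed partner, had 1 kainic acid region. It lay inside the gene from 95450157 to 95450606, about 16.1 kb downstream of the start site, with folds of 3.35 and 3.14 in kainic acid replicates 2 and 3. Both values ranked low in their lists, at percentiles 85.0 and 85.2, and replicate 1 had no peak in the whole Arnt window. Without either replicate 2 or replicate 3, Arnt had no kainic acid region. Of 4 regions called in a single list, those nearest to the start site were a peak of replicate 2 with its summit at −857 bp (fold 3.85) and a peak of replicate 3 with its summit at 1246 bp (fold 3.36), which did not overlap. The strongest peak of the window, with a fold of 5.44 in replicate 2, lay 20.2 kb beyond the gene, closer to Ctsk, the cathepsin K gene. The next kainic acid region was 130.0 kb from the gene, at a mean percentile of 8.40.

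Npas3 (chromosome 12, 53248026 to 54072173, gene ID 27386), whose span of 824.1 kb is the longest of the 4, had 9 kainic acid regions, of which 7 were in all 3 lists. All 9 lay inside the gene, and the nearest of them to the start site was 174 kb downstream. The region of best mean rank, from 53753157 to 53753810, had folds of 7.18 and 4.70 in kainic acid replicates 2 and 3, at percentiles 14.6 and 31.4, and no peak in replicate 1. Next came the region from 53826105 to 53827070, in all 3 lists with folds of 4.02, 9.69 and 6.27 and percentiles of 64.1, 6.01 and 12.0. It was strong in replicates 2 and 3 and weak in replicate 1.

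In each of the 7 Npas3 regions called in all 3 lists, replicate 1 had the weakest percentile. Its list was the shortest, so an equal rank gives a higher percentile there than in replicates 2 and 3. By fold or by rank, replicate 1 was not the weakest in every one of these regions. The region from 53781837 to 53782635 had folds of 4.53, 7.83 and 4.31 in replicates 1, 2 and 3. The region from 54043954 to 54044911 had folds of 4.22, 5.13 and 6.36, and a separate region began 20 bp beyond its end. The region from 53763965 to 53764715 had folds of 3.20, 6.21 and 6.20. The mean percentiles of these regions were 32.4, 33.6 and 41.6, and the other 4 had mean percentiles from 49.5 to 54.8. None of the 9 had a saline peak. Saline replicate 2 had 1 peak in the window, from 53253133 to 53253334, 4.85 kb downstream of the start site and also within the noncoding gene Gm51419, with a fold of 3.92 at percentile 61.8. No kainic acid list had a peak there. Another 11 regions were called in 1 kainic acid list.

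**Figure D3:**
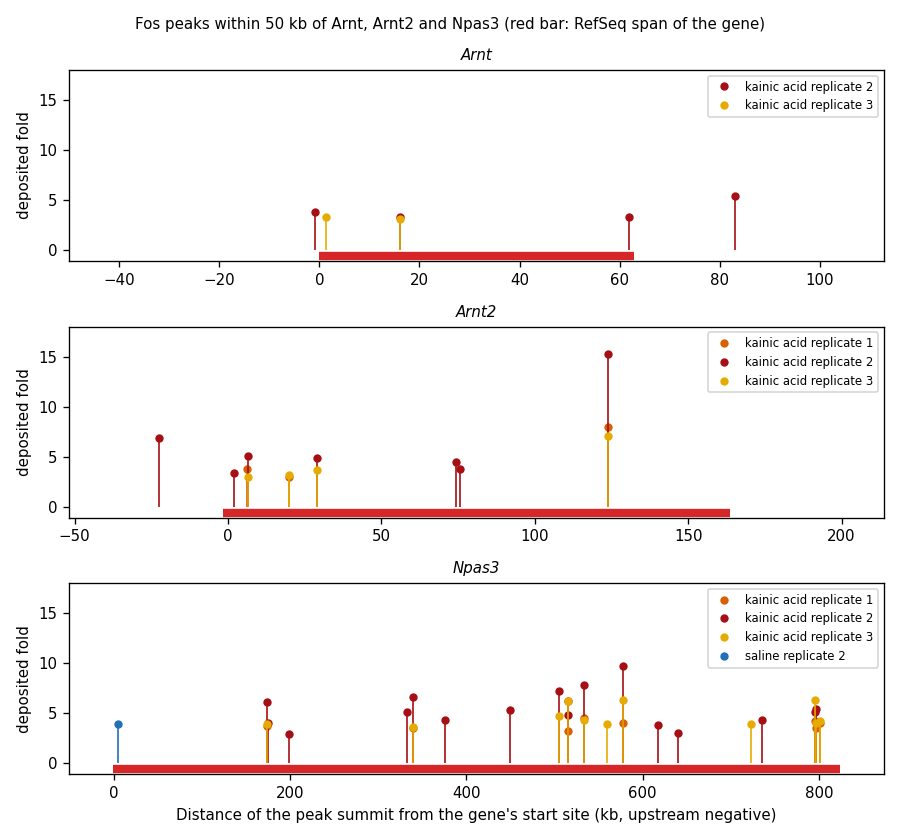
Deposited fold of each Fos peak (vertical axis) against the distance of its summit from the start site in kb (horizontal axis) for Arnt, Arnt2 and Npas3, coloured by library, with the RefSeq span as a red bar. The region 124 kb into Arnt2 stands above the others, and the Npas3 peaks lie along the gene body with 1 saline peak near its start.

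The genes were then set side by side by the strength of their best region. The mean percentile over the kainic acid lists with a peak was 0.322 ± 0.196 (SD over 3 lists) for Npas4, 4.58 ± 3.27 (SD over 3 lists) for Arnt2, 23.0 ± 11.9 (SD over 2 lists) for Npas3 and 85.1 ± 0.178 (SD over 2 lists) for Arnt. Npas4 and Arnt2 did not overlap, with values of 0.128 to 0.520 against 1.18 to 7.71. Arnt2 and Npas3 did not overlap by these regions, but with the best Npas3 region in all 3 lists (6.01 to 64.1) they did. A best region at or above that of Npas4 was found for 0.347% of protein-coding genes, against 5.36% for Arnt2, 29.4% for Npas3 and 61.9% for Arnt. These shares are of all 21887 genes, of which 62.7% had a kainic acid region, so no share can exceed that value. Of the 13733 genes with a region, 76 reached the best region of Npas4, 1173 that of Arnt2, 6439 that of Npas3 and 13556 that of Arnt. The only region of Arnt was thus weaker than the best region of nearly all genes that had one. Neighbouring genes share regions in these counts, and genes with long windows have more regions to choose from. The median over genes with a region was 24.8.

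With the main settings, the number of regions per length gave the same order of the 4 genes. There were 3.36 kainic acid regions per 100 kb of window around Npas4, 1.51 around Arnt2, 0.974 around Npas3 and 0.614 around Arnt, and the median protein-coding gene had 0.872. At least as high a density was found for 11.0%, 35.1%, 42.1% and 59.2% of protein-coding genes, respectively. The number of Npas3 regions, reached by 3.18% of genes, went with its length: its density was near the median. The counts behind these densities moved with the threshold: with −log10 q of at least 10 there were 2 regions for Npas4, 1 for Arnt2, 3 for Npas3 and 0 for Arnt. With −log10 q of at least 5, or with lists of equal length, Arnt2 had 1 region in its window of 265.5 kb. Npas3 then had 9 in its window of 924.1 kb, so Arnt2 did not stand above Npas3 by density. For Npas4 and Arnt2, 18.8% of genes had at least as many regions.

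**Figure D4:**
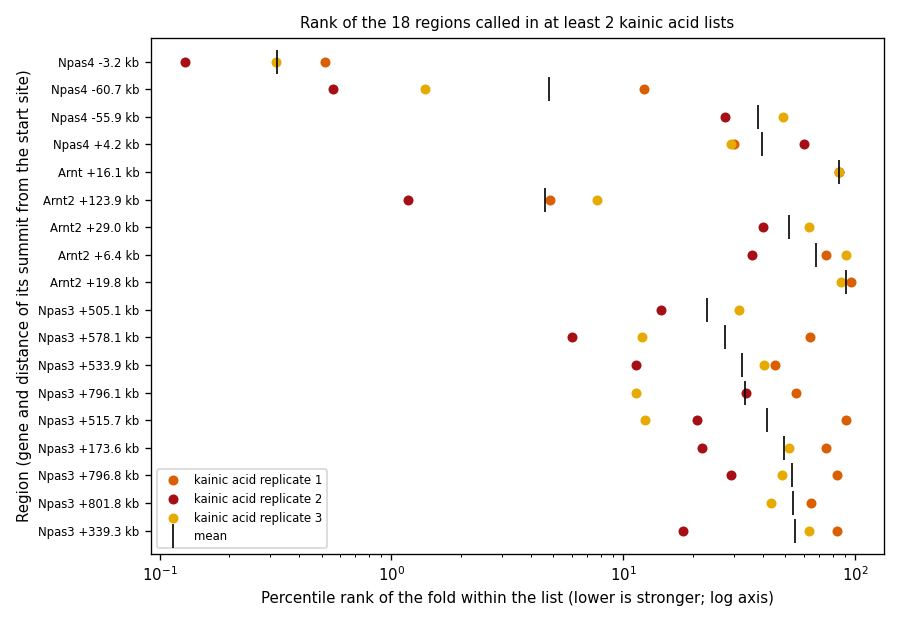
Percentile rank of the fold within each kainic acid list (horizontal log axis, lower is stronger) for the 18 kainic acid regions of the 4 genes, with the mean as a black mark. The region 3.2 kb upstream of Npas4 is the strongest in each list. The Rin1 and deep Arnt2 regions come next, in an order that differs between lists. The 7 Npas3 regions in all 3 lists have their highest percentile in replicate 1, the shortest list.

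Over the 4 genes, there were 18 kainic acid regions, and 12 of these (66.7%) were called in all 3 libraries, against 44.4% of all 26862 kainic acid regions. Another 23 regions were in 1 kainic acid list, 20 in replicate 2, 3 in replicate 3 and 0 in replicate 1. A saline peak was found at 1 of the 18, the Npas4 upstream site, and over all kainic acid regions at 2.01%. Seen from saline replicate 2, whose 3277 peaks lay at a kainic acid region in 17.0% of cases, 1 of its 3 peaks near these genes did so. Peaks of saline replicate 2 were found near Npas4 and Npas3, and near 30.2% of protein-coding genes.

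Genes with the most similar numbers of peaks in the 6 lists, on another chromosome or over 1 Mb away, were looked up for each gene. Likeness was the mean absolute difference of log10(number + 1) over the 6 lists. For Npas4, Stk38 had the same 6 numbers, and Pdcd4 and Cdon differed by 1 peak in kainic acid replicate 2. Their best regions ranked at 37.5, 17.5 and 37.9, far below the 0.322 of Npas4, so the likeness is in number and not in strength. For Arnt2, 20 genes had the same 6 numbers, and those closest in best rank were Abca5 (4.49), Chp1 (4.72) and Blzf1 (3.14). For Arnt, 106 genes had the same numbers, with Rnf24, Il13 and Il4 the closest in rank. The genes most like Npas3 were Snap25, Iqgap1 and Cacnb2, at differences of 0.0134, 0.0143 and 0.0148.

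Other genes of the pathway were counted in 3 lists. Of 15 other bHLH-PAS genes, 12 had a kainic acid region within 50 kb (80.0%, against 62.7% of all protein-coding genes), and 10 had one in all 3 lists (66.7%, against 42.5%). The best ranks belonged to Epas1, the hypoxia factor HIF-2α (mean percentile 2.78, folds 8.54, 15.3 and 8.54), and to the bHLH-PAS coactivator genes Ncoa2 (7.06) and Ncoa1 (8.20). The Ncoa1 value is a mean over replicates 2 and 3 only, as its region had no peak in replicate 1. Sim1, Clock and Arntl2 had no region. Kainic acid values lay above all saline values for 8 of the 15, against 33.5% of all genes.

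Of 17 genes for proteins reported in complexes with NPAS4 and ARNT2, most of them subunits of the NuA4/TIP60 acetyltransferase, 11 had a region (64.7%), close to the 62.7% of all genes, and 6 had one in all 3 lists (35.3%, against 42.5%). Among the best were those near Epc1 (mean percentile 1.87) and Mbtd1 (12.5), both genes of NuA4/TIP60 subunits. Brd8, Ing3, Dmap1, Actl6a, Actl6b and Yeats4 had none. Leaving out kainic acid replicate 2 left 6 cofactor genes with a region (42.6% of all genes), and leaving out replicate 3 left 7 (45.2% of all genes). Saline replicate 2 had a peak near 11 of these 17 genes, against 30.2% of all genes, and kainic acid values lay above all saline values for 3 of them, against 33.5%. In the first list, saline replicate 2 had a peak near 4 of the 15 genes.

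Of 12 genes known as targets of NPAS4, 11 had a region (91.7%, against 62.7% of all genes) and 10 had one in all 3 lists (83.3%, against 42.5%). The strongest lay 10.4 kb outside Mdm2, the gene of the ubiquitin ligase that degrades p53, with folds of 16.7, 24.1 and 20.0 in kainic acid replicates 1, 2 and 3 and a mean percentile of 0.101. Nptx2, a neuronal pentraxin that gathers AMPA receptors, and Csrnp1, a nuclear protein of the immediate early response, followed at 3.38 and 3.96. Gem, a small GTPase gene, had none. Kainic acid values lay above all saline values for 10 of the 12, against 33.5% of all genes, and saline replicate 2 had a peak near 4, against 30.2%. The median of the best mean percentile was 9.89 over the targets with a region, 31.9 over the other bHLH-PAS genes with one and 18.4 over the cofactor genes with one, against 24.8 over all genes with one. These counts stand beside those of all genes as a description, with no test of the lists.

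**Figure D5:**
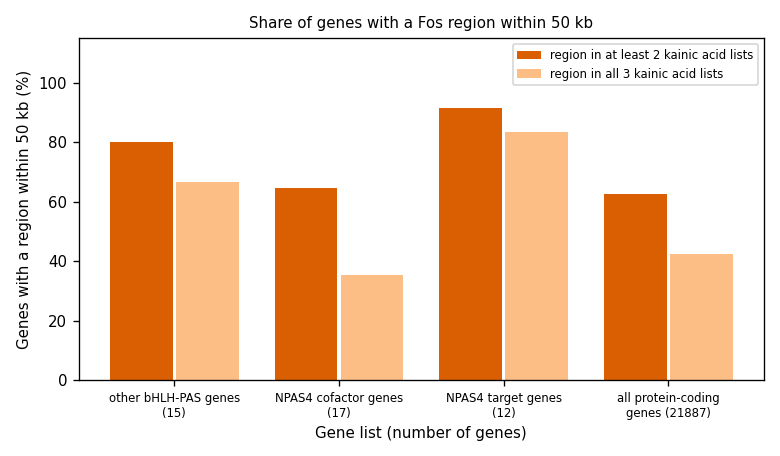
Share of genes in percent (vertical axis, from 0) with a Fos region within 50 kb, for 3 gene lists and for all 21887 protein-coding genes, by support from 2 or more (dark) or all 3 (light) kainic acid libraries. The target list stands at 91.7% and 83.3%, the cofactor list at 64.7% and 35.3% and all genes at 62.7% and 42.5%.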

How the data were processed

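Fos ChIP-seq of mouse hippocampus was used as 6 deposited peak lists, 1 per library (3 saline, 3 kainic acid), none pooled. The input library was not used here. The submitters' processing notes name the build mm10 and Trim Galore 0.6.4, Bowtie2 2.3.4.3, MACS2 and deepTools 3.5.0. The names of the peaks record a mapping quality filter at 30. The cutoff and control are not given in the sources used here. Each deposited list gives a fold (a linear ratio to background), −log10 p and −log10 q per peak and a score, which equals 10 times −log10 q rounded down. No read depth comes with the lists.

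Peaks overlapping by at least 1 bp were merged over all lists with Python 3.11.15 (pandas 2.3.3, scipy 1.17.1). Gene spans, start sites and promoter sequences came from RefSeq tables of GRCm38.p6, and all 4 genes matched. Peak height and background were solved from the deposited fold and −log10 p as a whole Poisson count. The solved −log10 p had to lie within 0.001 of the deposited value, or within a small fixed share of it where that was larger. This gave a value for 74 of 74 peaks, and for 500 of 500 simulated peaks, which were made with the same formula. Merging returned 1000 of 1000 simulated regions. These lay far apart and their peaks overlapped by design, so closely spaced regions were not tried. Numbers of peaks were compared by exact permutation.

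The genes, lists and tests were chosen with earlier results of these data known. The regions described are all kainic acid regions of a gene with 6 or fewer, otherwise the 5 of best mean rank, and every region with a saline peak. From each gene list the 3 genes of best rank and those with no region are named. The values of 1 gene that this rule takes are not reported here. For likeness the 3 closest genes are named. Slc29a2 and the single-list peaks were chosen after their values were seen. Alternatives varied the threshold, reach, replicate support, overlap rule, list length, ranking and libraries.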

Additional observations from a re-analysis of the deposited data

How the results depend on the processing

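Of 133 alternative values, 105 kept their direction or stayed within the 1.5-fold or spread limit, 27 moved and 1 reversed. The reversal was Npas4 per 1000 peaks of a list (−0.0496), through saline replicate 2. With 3 libraries a group no permutation p can reach 0.05, and stability cannot be read from them. The differences in log10(number + 1), with 1 library left out at a time, ran from 0.49 to 0.75 for Npas4, 0.24 to 0.59 for Arnt, 0.65 to 0.80 for Arnt2 and 0.92 to 1.10 for Npas3. With the replicate block the differences were 0.59, 0.39, 0.73 and 1.00, with exact sign-flip p of 0.25, 0.5, 0.25 and 0.25 (0.25 is the smallest that 3 pairs allow), so no call changed. The numbers were not treated as pairs: deviations of same-numbered libraries across genes correlated at 0.354, 0.347 and 0.0137. Saline replicate 2 sets these values, and kainic acid replicate 1 correlated as closely with saline replicate 3 (0.354).

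Numbers of kainic acid regions moved with the definition. With −log10 q of at least 5 there were 0 for Arnt and 1 for Arnt2, and with at least 10 there were 2, 0, 1 and 3 for Npas4, Arnt, Arnt2 and Npas3. With lists of equal length there were 0 for Arnt and 1 for Arnt2. With all 3 lists required there were 0 and 2, and with any list there were 8, 5, 8 and 20. At reaches of 0 and 10 kb Npas4 kept 2. Leaving out a kainic acid library gave 3 to 4 for Npas4, 0 to 1 for Arnt, 2 to 3 for Arnt2 and 7 to 8 for Npas3. Arnt2 had 2 without replicate 3. Fewer lists and higher thresholds allow fewer regions by construction.

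Ranked by −log10 q, the best region stood at 0.563 for Npas4 and 80.6 for Arnt, and the cause was not tested. The best region in all 3 lists within 10 kb does not exist for Arnt. Of the gene lists, 7 of 15 other bHLH-PAS genes had a region with −log10 q of at least 10 (36.1% of all genes) and 7 within 10 kb (40.0% of all genes). Of the 17 cofactor genes, 7 had one with −log10 q of at least 10 (36.1% of all genes), 6 with all 3 lists (42.5%), 6 without kainic acid replicate 2 (42.6%) and 7 without replicate 3 (45.2%). Leaving out a library gave 9 to 12 for the other bHLH-PAS genes, 6 to 10 for the cofactors and 10 to 11 for the targets.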
